A study of Mus musculus with 32 samples.

Results

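The 40 genes described here encode proteins that copy DNA in S phase: the helicase and its loaders, the firing kinase, the DNA polymerases, the sliding clamp and its loader, chromatin assembly factors, enzymes of nucleotide supply and 2 E2F activators. They were taken as a list of gene symbols, each represented by a probe set that the array annotation assigns to that gene alone, and by the one with the highest mean over 32 arrays where a gene has several. All 40 of 40 were measured, among 19938 genes with such a probe set. They were chosen by function, with earlier results of these data known. Their mean signals lay between the 58.7 and the 99.6 percentile of all genes, which ranks the brightness of probe sets and not amounts of RNA. Every value below is a signal or a difference of signals on the log2 scale, and no gene's level is set against another member's.

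Total RNA of 4 mouse macrophage lines was hybridised to 32 Affymetrix Mouse Gene 1.0 ST arrays, in 16 groups of 2. The lines bear the prefix M-/- and the name of the receptor for colony-stimulating factor 1 (CSF-1R) each carries: WT, Y721F, 3ABY721 or 3AB. The tyrosine Tyr-721 of the receptor is present and phosphorylated in WT and 3ABY721 and is missing from Y721F and 3AB. The medium of all lines was α-MEM plus newborn calf serum, with human recombinant CSF-1 at 120 ng/mL unless they were starved. In the steady-state experiment, RNA was taken from each line after CSF-1 starvation or during continuous growth in CSF-1 (8 groups). For the time course, overnight-starved cells of WT and Y721F received CSF-1 for 0, 20, 60 or 180 min (8 groups). Each receptor is represented by 1 line, so receptor and line cannot be told apart, and the sources used here do not give the construct that carries the receptor. The 2 arrays of a group are biological replicates per the series' design text, and the p-values measure the spread between such arrays of 1 line.

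CSF-1 is the growth and survival factor of macrophages, and its withdrawal arrests many macrophage lines in G1. In the usual account, growth factor signals raise D-type cyclins, which with Cdk4 and Cdk6 phosphorylate the retinoblastoma protein and release E2F factors. E2F then turns on cyclin E and the replication genes. The origin recognition complex, Cdc6 and Cdt1 load the Mcm2-7 helicase onto origins in G1, and the kinases Cdk2 and Cdc7-Dbf4 later switch it on together with Cdc45 and the GINS complex. Many of these transcripts peak near the start of S phase in cycling cells, so they are often read as a sign of proliferation. In RNA from whole cultures, fewer cells in S phase and less of each transcript per cell cannot be told apart.

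Arrays of the same group correlated at 0.986 to 0.9962 over all genes, and array medians over all 35556 probe sets lay between 5.97 and 6.22. All 10 measured macrophage markers were above the median gene, with Csf1r between 12.72 and 13.41 on the 32 arrays. Of the markers of other cell types, 0 of 5 lymphocyte, 0 of 7 granulocyte and mast cell and 0 of 4 dendritic cell genes were above the median gene, against 4 of 6 fibroblast and 3 of 4 osteoclast genes. The 2 arrays of starved Y721F cells were the lowest in scale: their upper quartiles were 8.46 and 8.54, against 8.58 to 8.79 on the other 14 steady-state arrays. The nearest of those, a starved 3ABY721 array at 8.58, was close to them. That bears on the comparisons between lines and is given there. A gene is said to have risen or fallen only where its adjusted p from limma (Benjamini-Hochberg over 19938 genes) was under 0.05 and its fold above 1.5.

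The promoters of these genes share sequence that the choice of members did not use. RefSeq windows of 300 bases around a start (250 before and 50 after, build GRCm38.p6) were at hand for 34 of the 40 genes. An E2F-type word (TTTCCCGC, TTTGGCGC, TTTGCCGC or TTTCGCGC on either strand) stood in the windows of 15 of the 34 genes, which is 44.1%, against 704 of 27025 genes, which is 2.6%. The 15 are Mcm3, Mcm5, Mcm6, Mcm7, Cdc6, Cdt1, Orc1, Gins3, Pola1, Pold1, Pole2, Rfc3, Lig1, Uhrf1 and E2f2. The word CCAAT stood in 19 of 34 (55.9%, against 41.1% of all genes) and TTTGAA, the letters of the cell-cycle homology element, in 7 of 34 (20.6%, against 20.2%). A word match is a description of letters, not a shown binding site. The 250 bases before the start are printed for the 4 members with an E2F-type word and the 2 without one whose mean difference between grown and starved cells was largest, since the results on growth turn on E2f2, Gins3, Pola1 and Dbf4 among them. Capitals mark matches to these words on either strand, and positions count from the start.

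E2f2 (chr4:136172024-136172273, plus strand): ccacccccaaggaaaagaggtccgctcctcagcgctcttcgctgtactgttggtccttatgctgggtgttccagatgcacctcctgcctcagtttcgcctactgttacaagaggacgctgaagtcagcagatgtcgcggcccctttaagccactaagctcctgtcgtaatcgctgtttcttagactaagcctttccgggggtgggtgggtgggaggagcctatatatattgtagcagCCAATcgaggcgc
Gins3 (chr8:95633309-95633558, plus strand): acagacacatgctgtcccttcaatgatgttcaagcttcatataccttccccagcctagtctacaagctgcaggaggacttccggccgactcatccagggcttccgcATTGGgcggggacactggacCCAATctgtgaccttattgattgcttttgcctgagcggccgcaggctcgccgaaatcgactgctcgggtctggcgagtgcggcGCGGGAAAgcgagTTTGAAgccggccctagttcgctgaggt
Pola1 (chrX:93632156-93632405, minus strand): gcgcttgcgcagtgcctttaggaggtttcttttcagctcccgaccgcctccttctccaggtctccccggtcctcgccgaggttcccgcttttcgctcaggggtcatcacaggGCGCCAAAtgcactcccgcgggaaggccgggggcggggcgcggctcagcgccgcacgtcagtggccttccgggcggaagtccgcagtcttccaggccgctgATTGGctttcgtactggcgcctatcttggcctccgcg
Orc1 (chr4:108579204-108579453, plus strand): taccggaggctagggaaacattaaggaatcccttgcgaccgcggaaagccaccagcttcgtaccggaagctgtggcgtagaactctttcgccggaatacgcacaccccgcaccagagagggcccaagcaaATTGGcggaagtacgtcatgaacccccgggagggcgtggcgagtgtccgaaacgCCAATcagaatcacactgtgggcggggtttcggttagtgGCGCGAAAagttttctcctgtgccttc
Dbf4 (chr5:8422717-8422966, minus strand): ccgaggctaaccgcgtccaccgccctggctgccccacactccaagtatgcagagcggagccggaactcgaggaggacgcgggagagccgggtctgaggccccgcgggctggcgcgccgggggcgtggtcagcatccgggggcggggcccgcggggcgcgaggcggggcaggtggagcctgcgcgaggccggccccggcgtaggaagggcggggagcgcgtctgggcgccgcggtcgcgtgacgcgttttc
Rrm2 (chr12:24708004-24708253, plus strand): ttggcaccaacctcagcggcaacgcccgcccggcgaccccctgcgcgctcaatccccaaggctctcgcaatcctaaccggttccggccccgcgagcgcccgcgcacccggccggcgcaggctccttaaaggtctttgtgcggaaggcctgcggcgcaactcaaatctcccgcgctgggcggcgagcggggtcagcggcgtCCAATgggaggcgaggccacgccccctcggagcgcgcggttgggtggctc

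In Gins3 the E2F-type word TTTCCCGC lies at -41 to -34 on the opposite strand, close to TTTGAA at -28 to -23. In Pola1 the word TTTGGCGC lies at -138 to -131, and in Orc1 the word TTTCGCGC lies at -27 to -20, both on the opposite strand. E2f2 has 2 annotated windows, and the E2F-type word of the one shown, TTTGGCGC, lies past its start at 40 to 47, beyond the printed bases. Dbf4 holds none of the words in the printed bases. Rrm2, a textbook E2F target, holds 1 CCAAT and none of the 4 E2F-type words in this window, which says only that these letters are not there.

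The first question was whether growth in CSF-1 raised the replication genes above their level in starved cells. It did so for 1 of the 40 genes in 1 line. Gins3 rose in Y721F (1 of 40 members called, against 4.94% of all genes), and E2f2 fell in WT (1 of 40, against 5.32%). None of the 40 was called in 3ABY721 (0 of 40, against 1.41%; 3 had an unadjusted p under 0.05 in limma) or in 3AB (0 of 40, against 0.687%; 3 unadjusted). As the mean over the 4 lines, 0 of 40 were called, against 4.21% of all genes, and 12 had an unadjusted p under 0.05. The design could bound these effects: the 95% interval of the mean over the 4 lines lay inside a 1.5-fold change in either direction for all 40 members, as it did for 89.3% of all genes. Within single lines the interval lay inside that range for 29 members in WT, 27 in Y721F, 36 in 3ABY721 and 35 in 3AB.

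Some genes that act before the E2F step were called in the same RNA. Cyclin D1 (Ccnd1) rose by 2.69 (SE 0.22, adjusted p = 1.5e-06 in limma) as the mean over the 4 lines and was called in each line, with 3.29 in WT, 2.18 in Y721F, 2.75 in 3ABY721 and 2.53 in 3AB. Cyclin D2 (Ccnd2) rose by 2.14 (SE 0.16, adjusted p = 9.93e-07), their partner Cdk6 by 0.99 (SE 0.11, adjusted p = 3.52e-05) and the growth regulator Myc by 0.74 (SE 0.23, adjusted p = 0.0303). Cyclins of the following steps were not called: cyclin E1 (Ccne1) differed by 0.03 (adjusted p = 0.823), cyclin E2 (Ccne2) by 0.18 (adjusted p = 0.176) and cyclin A2 (Ccna2) by 0.15 (adjusted p = 0.14). The proliferation marker Mki67 differed by -0.12 (adjusted p = 0.198), and the Cdk inhibitor gene Cdkn1b by -0.44 (adjusted p = 0.0722). Of 24 measured genes on the list of the E2F and RB switch, 4 rose (Ccnd1, Ccnd2, Cdk6 and Myc) and 0 fell. Cyclin D3 (Ccnd3), on the same list, was therefore not called.

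**Figure D1:**
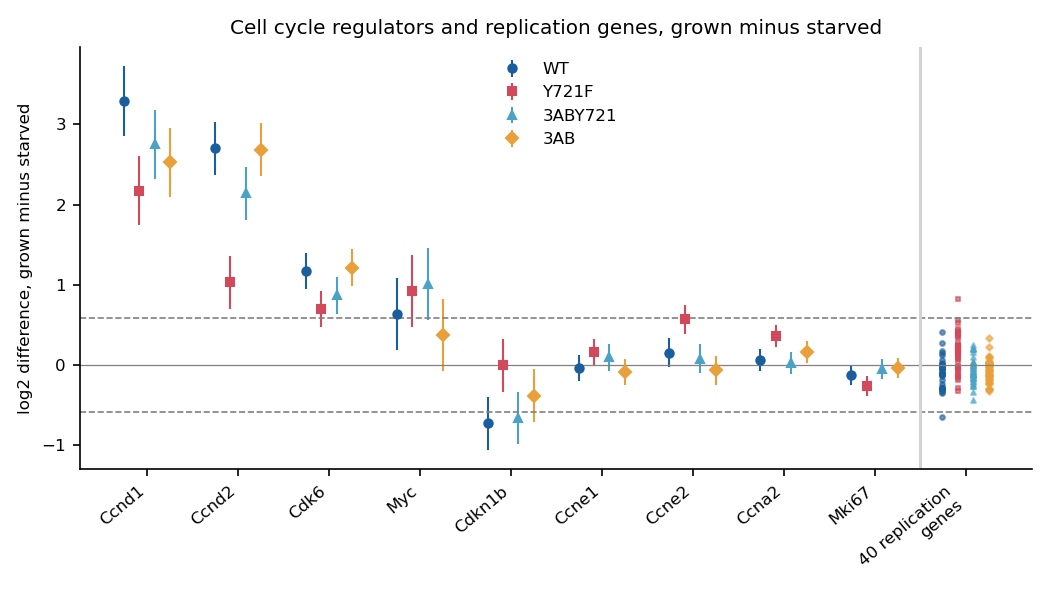
Growth effect (grown minus starved, log2) of cyclins, their regulators and Mki67 in each of 4 lines, with SE bars, beside the 40 replication genes in the same lines. The markers of Ccnd1 and Ccnd2 lie above all markers of the 40 genes. Those lie between -0.65 (E2f2 in WT) and 0.83 (Gins3 in Y721F).

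The 5 other gene lists around replication held few calls. As the mean over the 4 lines, 0 of 13 further licensing and firing genes, 0 of 9 further genes of nucleotide and chromatin supply and 0 of 10 genes of recombination and mismatch repair were called. Of 20 further fork proteins, 1 fell: the nuclease-helicase Dna2, by 0.67 (adjusted p = 7.47e-05 in limma). Of 17 mitotic genes, 1 rose, the checkpoint kinase Bub1, by 0.70 (adjusted p = 6.73e-06).

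Sizes below the 1.5-fold limit could still be resolved. Of the 40 members, 8 had an adjusted p under 0.05 at some smaller fold in the mean over the 4 lines, against 20.9% of all genes. The count was close to that share, so it does not set the members apart. Of these 8, 5 were negative (E2f2, Tk1, Pola1, Lig1 and Mcm7) and 3 positive (Dbf4, Rrm2 and Gins3). Over all 40, the median growth effect was -0.02, that of all genes was -0.02 and that of the 8157 genes in the members' signal range was 0.08. The sign was negative in all 4 lines for 10 members, which are Mcm2 to Mcm7, Cdt1, Pola1, Tk1 and E2f2. It was positive in all 4 lines for 6, which are Orc6, Gins3, Dbf4, Fen1, Uhrf1 and Rrm2. The members thus differed in sign among themselves, as the plot of growth effects by gene shows. Quantile normalization of the arrays moved the median of the 40 to -0.11, against 0.01 for the genes in that range.

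**Figure D2:**
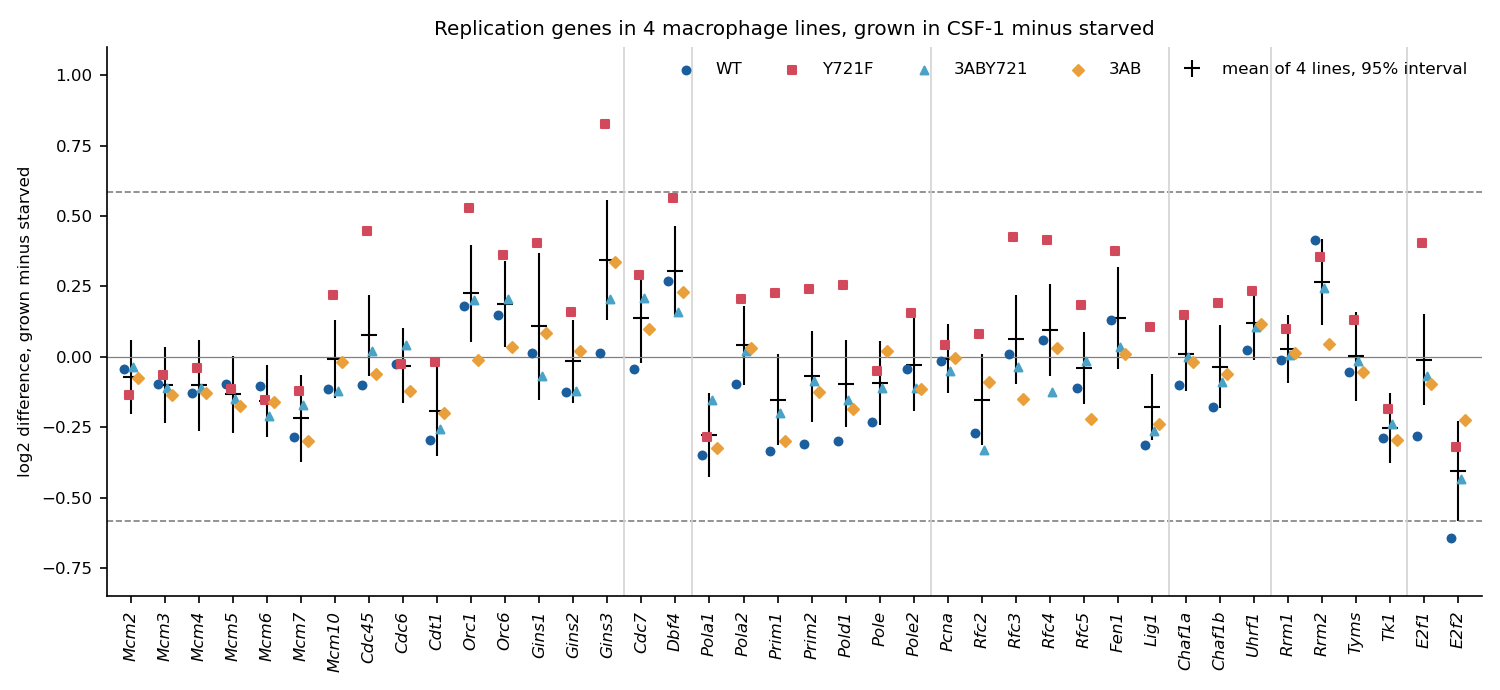
Growth effect of each of the 40 genes (grown minus starved, log2), with 1 marker per line and the mean over 4 lines in black with its 95% interval; dashed lines mark a 1.5-fold change. All 40 mean intervals lie between the dashed lines, and the only markers past them are E2f2 in WT (-0.65) and Gins3 in Y721F (0.83).

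Among the genes of helicase loading and activation, the 6 subunits of the Mcm2-7 ring were each slightly lower in grown cells of every line, with growth effects between -0.30 (Mcm7 in 3AB) and -0.04 (Mcm2 in 3ABY721). Mcm7 had the largest mean difference of the ring, -0.22 (SE 0.07, adjusted p = 0.0428 in limma). Its 8 starved arrays read 10.86 at the lowest, 11.21 at the median and 11.57 at the highest, and the 8 grown arrays 10.79, 11.03 and 11.24. The ranges overlap widely across lines, and the call at any fold did not hold without 12 of the 16 arrays in turn. Cdt1, which brings the ring to the origin, differed by -0.19, with starved arrays from 11.06 to 11.38 and grown arrays from 10.76 to 11.34.

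The origin recognition genes had positive means. Orc1, the largest subunit of the origin recognition complex, read 7.11 to 7.91 in starved and 7.51 to 7.82 in grown cells, a mean difference of 0.23. Orc6, another subunit, read 9.31 to 9.57 and 9.37 to 9.88, a mean difference of 0.19. Neither was called, and the ranges overlap. Cdc6, which works with the origin recognition complex in loading, differed by -0.03, Mcm10, which helps to activate the helicase, by -0.01, and Cdc45, a subunit of the active helicase, by 0.08.

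Gins3, a subunit of the GINS complex that completes the active helicase, gave the 1 rise. In Y721F it read 9.23 and 9.07 in starved cells and 9.76 and 10.19 in grown cells. Both grown arrays lie above both starved arrays, but they are also far apart from each other. The difference was 0.83 (SE 0.20, adjusted p = 0.0256 in limma). In 3ABY721 it read 9.47 and 9.47 starved against 9.65 and 9.70 grown, and in 3AB 8.76 and 8.90 against 9.16 and 9.17. Those groups do not overlap either, with smaller gaps, while in WT the starved arrays at 9.15 and 9.32 fell between the grown arrays at 8.88 and 9.62. The call in Y721F was lost without either starved array, without the second grown array, and after quantile normalization or centring of the arrays (adjusted p from 0.0118 to 0.211 over all alternatives). The other GINS subunits were not called in any line. Gins1 had a mean difference of 0.11, with 0.41 in Y721F and -0.07 to 0.09 in the other lines, and Gins2 had a mean of -0.02, with 0.16 in Y721F.

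Both subunits of the firing kinase had a positive mean. Dbf4, the regulatory subunit that activates Cdc7, read 9.50 and 9.17 in starved and 9.70 and 9.51 in grown WT cells, and 9.16 and 8.85 against 9.60 and 9.54 in Y721F. In 3ABY721 it read 9.53 and 9.53 against 9.71 and 9.67, and in 3AB 9.55 and 9.78 against 9.93 and 9.86. In every line both grown arrays lie above both starved arrays. The mean difference was 0.31 (SE 0.07, adjusted p = 0.00879), below 1.5-fold, and it held without each of the 16 arrays in turn but not when all 32 arrays were fitted together. The kinase subunit Cdc7 differed by 0.14, with starved arrays from 6.83 to 7.87 and grown arrays from 7.16 to 7.87.

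Of the 7 polymerase and primase genes, 6 had a negative mean and 1 a positive one. Pola1, the catalytic subunit of the polymerase that starts each new strand, was the clearest. It read 10.35 and 10.21 in starved and 10.08 and 9.78 in grown WT cells, and 9.37 and 9.56 against 9.29 and 9.07 in Y721F. In 3ABY721 it read 10.05 and 10.04 against 9.95 and 9.83, and in 3AB 10.30 and 10.33 against 10.04 and 9.94. In each line both grown arrays lie below both starved arrays. The mean difference was -0.28 (SE 0.07, adjusted p = 0.01 in limma), and its adjusted p stayed under 0.05 without each of the 16 arrays in turn and in all other settings. Its partner Pola2, the B subunit of the same polymerase, differed by 0.04, and the primase genes Prim1 and Prim2, which make the RNA primer, by -0.15 and -0.07. Pold1, the catalytic subunit of the main lagging-strand polymerase, differed by -0.10, and Pole and Pole2, subunits of the leading-strand polymerase, by -0.09 and -0.03.

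No growth effect of a clamp, clamp loader or lagging-strand gene was called in any line. Pcna, the sliding clamp that holds polymerases on DNA, read 12.29 to 12.70 in starved and 12.30 to 12.67 in grown cells, a mean difference of -0.01. A second probe set of the gene gave differences from -0.08 to 0.03 in the 4 lines. The clamp loader genes Rfc2, Rfc3, Rfc4 and Rfc5 differed by -0.15, 0.06, 0.10 and -0.04, and Fen1, the flap nuclease that trims Okazaki fragments, by 0.14. Lig1, the ligase that joins them, read 10.21 to 10.59 in starved and 10.12 to 10.37 in grown cells, a mean difference of -0.18 (SE 0.06, adjusted p = 0.0324) that lost its adjusted p without 11 of the 16 arrays in turn.

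The 3 chromatin genes showed no call. Uhrf1, which carries DNA methylation over to the new strand, read 10.22 to 11.00 in starved and 10.36 to 10.99 in grown cells, a mean difference of 0.12. Chaf1a and Chaf1b, subunits of the chromatin assembly factor CAF-1 that places histones on new DNA, differed by 0.01 and -0.04.

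Within nucleotide supply, members went both ways. Tk1, the thymidine kinase of S phase, read 10.66 and 10.80 in starved and 10.50 and 10.38 in grown WT cells, 10.47 and 10.39 against 10.21 and 10.28 in Y721F, 10.66 and 10.61 against 10.43 and 10.36 in 3ABY721, and 10.75 and 10.83 against 10.53 and 10.46 in 3AB. In each line both grown arrays lie below both starved arrays. The mean difference was -0.25 (SE 0.06, adjusted p = 0.00673), and a second probe set gave -0.48, -0.23, -0.35 and -0.29 in WT, Y721F, 3ABY721 and 3AB. With all 32 arrays in 1 fit its adjusted p was 0.0517. Rrm2, the S-phase subunit of ribonucleotide reductase, had a positive mean of 0.27 (SE 0.07, adjusted p = 0.0165), which did not keep an adjusted p under 0.05 after quantile normalization or centring of the arrays, or with all 32 arrays in 1 fit. It read 10.50 and 10.37 starved against 10.99 and 10.71 grown in WT, and 10.68 and 10.73 against 10.77 and 10.73 in 3AB. The groups are apart in WT and touch in 3AB. Rrm1, the other reductase subunit, differed by 0.03, and Tyms, the thymidylate synthase, by 0.00, with starved arrays from 9.77 to 10.76 and grown arrays from 9.79 to 10.75.

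E2f2, an activating E2F factor, gave the 1 fall. In WT it read 8.58 and 8.50 in starved and 7.95 and 7.84 in grown cells. The groups are well apart. The difference was -0.65 (SE 0.17, adjusted p = 0.034 in limma). It read 7.85 and 7.76 against 7.28 and 7.69 in Y721F, 8.21 and 8.58 against 7.84 and 8.08 in 3ABY721, and 8.04 and 8.30 against 7.95 and 7.94 in 3AB. In each line both grown arrays lie below both starved arrays. The call in WT was lost without any 1 of the 4 WT arrays and when all 32 arrays were fitted together (adjusted p from 0.0251 to 0.18 over all alternatives), whereas the mean over the 4 lines, -0.41 (SE 0.08, adjusted p = 0.00298), kept an adjusted p under 0.05 in every setting tried. E2f1, the best known activating E2F, differed by -0.01, with starved arrays from 9.03 to 9.67 and grown arrays from 8.90 to 9.55.

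**Figure D3:**
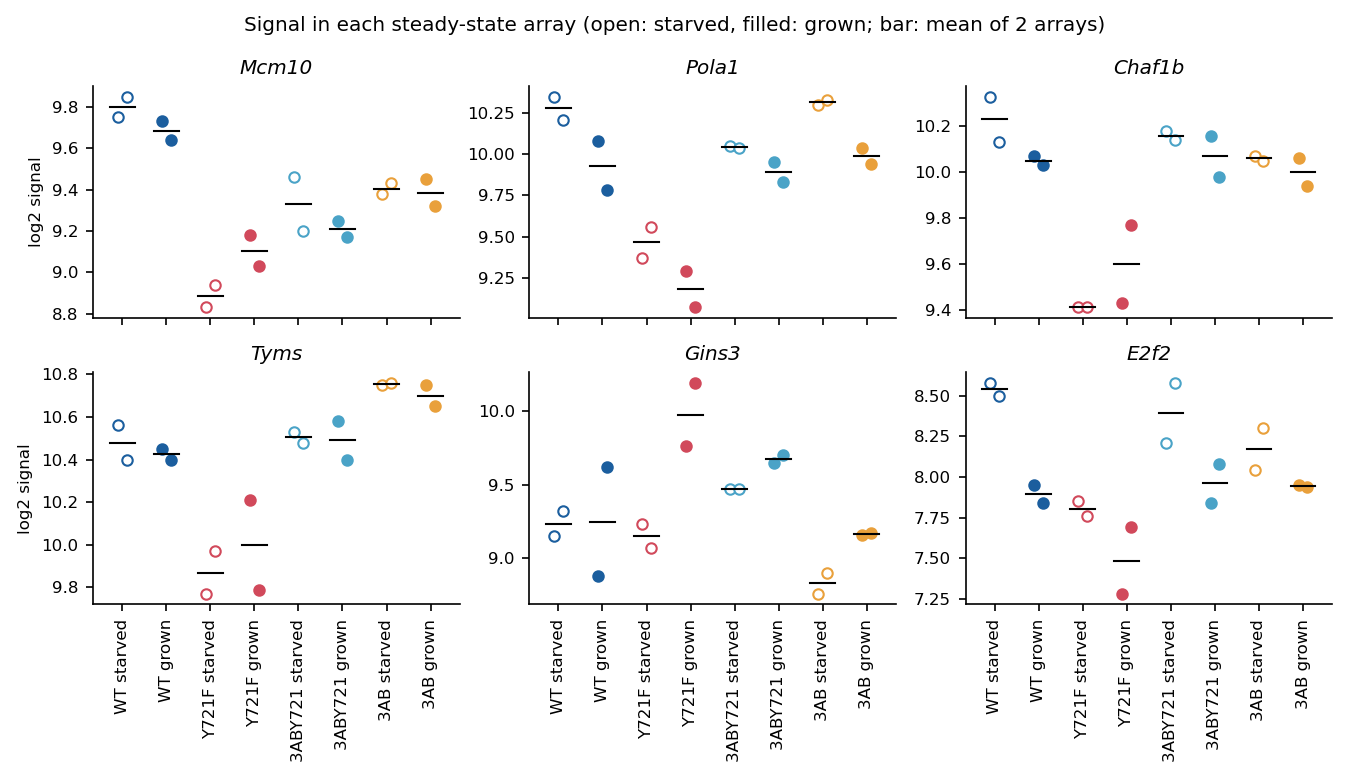
Signal (log2) of Mcm10, Pola1, Chaf1b, Tyms, Gins3 and E2f2 on each steady-state array, with open points for starved cells, filled points for grown cells and a bar for the mean of 2 arrays. The starved Y721F arrays of Mcm10, Pola1, Chaf1b and Tyms lie below all starved arrays of the other lines, while E2f2 is lower in grown cells of each line.

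The growth effect itself was then compared between lines. Between Y721F and WT, 0 of 40 members were called (0.0903% of all genes were), 7 had an unadjusted p under 0.05 in limma, and 35 of 40 differences were positive. The median was 0.28 for the 40 genes, 0.04 for all genes and 0.16 for the 8157 genes in the same signal range. After quantile normalization the median of the 40 genes was 0.11. E2f1 was among the 7, with growth effects of 0.41 in Y721F and -0.28 in WT and a difference of 0.69 (SE 0.21, adjusted p = 0.277). Between 3AB and 3ABY721, 0 of 40 were called (0.00502% of all genes), 0 had an unadjusted p under 0.05, and the median was -0.02.

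More members were called between lines than between starved and grown cells, and these calls lay between Y721F and WT or 3AB. In grown cells, 4 of 40 members were called between Y721F and WT, against 7.88% of all genes. Among the 8157 genes in the members' signal range, 14.2% were called. Pola1 was lower in Y721F by 0.75 on the log2 scale (a difference of -0.75, SE 0.14, adjusted p = 0.00336 in limma), with the array values given above showing both Y721F arrays far below both WT arrays. Mcm4, a ring subunit, was lower (-0.61, adjusted p = 0.0198), as was Pole (-0.60, adjusted p = 0.0144). Gins3 was higher (0.73, adjusted p = 0.0326). Between 3AB and Y721F, which both lack the tyrosine, 5 were called, against 7.87% of all genes and 13% of those in that range. Pola1 (0.81, adjusted p = 0.00135 in limma), Tyms (0.70), Pole (0.69) and Mcm4 (0.60) were higher in 3AB and Gins3 (-0.81) was lower. Both counts of members lay between the share of all genes and that of the genes in range. The count between Y721F and WT fell to 1 without the first WT grown array and to 2 without the second Y721F grown array, and that between 3AB and Y721F to 2 without the second Y721F or either 3AB grown array. Pola1 kept its call in both comparisons without each array in turn and in the other settings. Mcm4 and Pole lost theirs against WT after quantile normalization and after centring, which left 2 of the 4 calls.

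Cell type markers moved on the same grown arrays. The mean of the 10 macrophage markers was 9.80 to 9.85 in grown Y721F and 11.00 to 11.03 in grown WT cells, and 4 of 10 were lower, with Fcgr1 at -5.16, Mertk at -2.78 and Lyz2 at -1.54. Mertk was also lower in grown 3ABY721 than in WT (-1.1), while Fcgr1 and Lyz2 were not called there. The mean of the 6 fibroblast markers was 6.06 to 6.38 in Y721F and 5.81 to 5.82 in WT, with Pdgfra higher by 2.05. The part of these shifts in the grown line differences was not tested.

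The pair that shares the 3AB name gave no call. Between 3AB and 3ABY721 in grown cells, 0 of 40 members were called, against 1.18% of all genes, and between 3ABY721 and WT 0 of 40, against 0.256%. The largest difference of the latter was that of Mcm10, -0.48 (adjusted p = 0.144). Counts at an unadjusted p under 0.05 were 5 and 4.

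In starved cells more members were called between Y721F and WT or 3AB than in grown cells. Y721F was not tested against 3ABY721. Against WT, 14 of 40 members were lower in Y721F, where 7.66% of all genes were, and 0 were higher. Both Y721F arrays lay below both WT arrays for 32 members, and the groups overlapped for 8. The share of all genes so separated was not counted, so these counts do not set the members apart. Mcm10 read 8.83 and 8.94 in Y721F and 9.75 and 9.85 in WT, a difference of -0.92 (SE 0.13, adjusted p = 0.000338 in limma). Chaf1b read 9.41 and 9.41 against 10.33 and 10.13 (-0.82, adjusted p = 0.00122). Pola1 differed by -0.82 (adjusted p = 0.00137). Every one of these pairs is apart by several times its own spread.

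By role, the lower genes were 3 of 15 in helicase loading and activation (Mcm10, Cdc45 and Mcm4), 1 of 2 in the firing kinase (Cdc7), 4 of 7 polymerase and primase genes (Pola1, Pole, Pold1 and Prim1), 2 of 7 clamp and lagging-strand genes (Rfc4 and Fen1), 2 of 3 chromatin genes (Chaf1b and Uhrf1), 1 of 4 nucleotide genes (Tyms) and 1 of 2 E2F factors (E2f2). Their differences ran from -0.92 to -0.60. Pole differed by -0.78, Cdc45 by -0.74, E2f2 by -0.74, Mcm4 by -0.70 and Uhrf1 by -0.69. Of the 12 lower genes with a promoter window, 4 held an E2F-type word, against 11 of the 22 other members with a window. The 5 other ring subunits were not called.

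Against 3AB, 12 of 40 members were lower in starved Y721F cells (higher in 3AB, as 5.08% of all genes were). Tyms read 9.77 and 9.97 in Y721F and 10.75 and 10.76 in 3AB, a difference of 0.89 for 3AB over Y721F (SE 0.15, adjusted p = 0.00134 in limma). Pola1 differed by 0.85, Fen1 by 0.78, Cdc7 by 0.77, Cdc45 by 0.77, Rfc4 by 0.73, Mcm4 by 0.69 and Dbf4 by 0.66, and the smallest of the 12 was Uhrf1 at 0.59. Both 3AB arrays lay above both Y721F arrays for 34 members, again without a count over all genes. The 2 comparisons share the Y721F arrays. In them 10 members were lower than both other lines, which are Cdc45, Cdc7, Chaf1b, Fen1, Mcm4, Pola1, Pole, Rfc4, Tyms and Uhrf1, and 3 of these, Mcm4, Pola1 and Pole, were also lower than both in grown cells as deposited. Between 3AB and 3ABY721, 0 of 40 starved members were called (0.617% of all genes, 6 at an unadjusted p under 0.05), and between 3ABY721 and WT 0 of 40 (1.81%, 5 unadjusted).

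These differences moved with the scale of the starved Y721F arrays. Among the 8157 genes in the members' signal range (7.42 to 12.51), the median difference between starved Y721F and WT cells was -0.22 and 15.5% were lower, against -0.34 and 14 of 40 for the replication genes. Quantile normalization left 1 of the 14 calls, Mcm10 (-0.66, adjusted p = 0.00329), and a median of -0.19. Another 6 of the 14 (Cdc45, Cdc7, Pola1, Pole, Chaf1b and Uhrf1) kept an adjusted p from 0.0143 to 0.0358 at smaller differences of -0.57 to -0.45. Centring each array on its upper quartile, which moved the median of all genes to 0.27, also left Mcm10 alone and a member median of -0.07. Of the 12 calls against 3AB, both scalings left 5, which are Cdc45, Cdc7, Pola1, Fen1 and Tyms, with member medians of 0.28 and 0.26. Without the first starved Y721F array 9 of the 14 calls against WT were made, and without the second starved 3AB array 4 calls against 3AB were made.

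Other genes moved in the same arrays. Of the measured genes in the other fixed lists, starved Y721F cells were lower than WT in 3 of 13 licensing and firing genes (among them Ticrr, which helps to fire origins, -0.94), 4 of 20 fork proteins (among them Clspn, a checkpoint mediator, -0.80), 1 of 9 supply genes (Dck, a salvage kinase, -1.17), 5 of 10 recombination genes (among them Rad54l and Blm, both -1.25), 7 of 24 genes of the E2F and RB switch (among them Myc, -1.93, and Ccnd2, -1.26) and 1 of 17 mitotic genes (Kif11, a spindle motor, -0.79). The share of all genes called lower was 7.66%, and it was 15.5% in the members' signal range. Calls of these list genes after rescaling are not given here. Of those named, Myc (-2.47), Ticrr (-0.71) and Rad54l (-0.59) were also lower in starved 3ABY721 than in WT. Clspn, Dck, Blm, Ccnd2 and Kif11 were not called there. Macrophage markers moved too. Their summed level, as the mean of 10 genes, was 10.43 to 10.61 in starved Y721F and 11.37 to 11.58 in starved WT cells, and 4 of 10 were lower, with Fcgr1 at -4.38 and Mertk at -1.75. Mertk was also lower in starved 3ABY721 than in WT (-1.67), while Fcgr1 was not called there. The mean of the 6 fibroblast markers was 6.45 on both starved Y721F arrays and 5.90 to 6.09 in WT, with Pdgfra higher by 1.50, while Lum, the dimmest of them, was at 3.52 over all arrays. The part of these shifts in the differences of the replication genes was not tested.

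**Figure D4:**
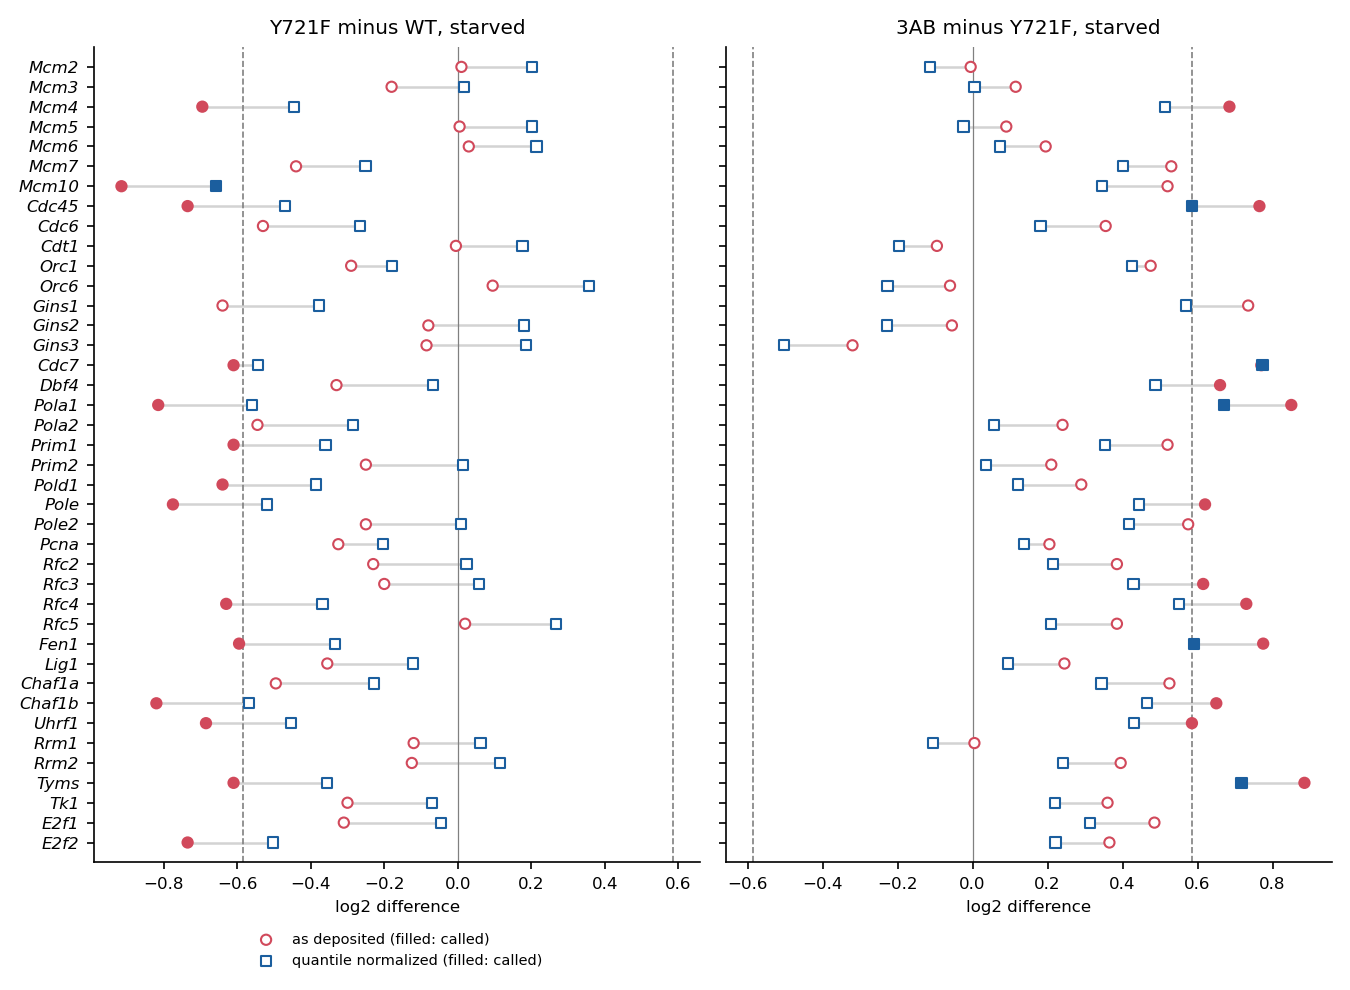
Differences between lines in starved cells (log2) for the 40 genes, Y721F minus WT and 3AB minus Y721F, from the values as deposited (red circles) and after quantile normalization (blue squares), filled where called. Quantile normalization moves the median of the first comparison from -0.34 to -0.19 and of the second from 0.44 to 0.28 and leaves 1 of 14 calls in the first comparison and 5 of 12 in the second.

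The time course asked whether the genes responded in the first hours after CSF-1 was given back. No member was called at any time. In WT, 0 of 40 were called at 20 min (0.16% of all genes), at 60 min (0.632%) and at 180 min (2.16%), and between 180 and 60 min (0.0251%), and 0, 0, 7 and 1 had an unadjusted p under 0.05 in limma. In Y721F, 0 of 40 were called at 20 min (0.0802%), 60 min (0.176%) and 180 min (0.261%) and between 180 and 60 min (0.0301%), with 0, 0, 7 and 3 unadjusted. At 180 min 30 of 40 differences from 0 min were negative in WT and 29 of 40 in Y721F, with medians of -0.11 and -0.17, against -0.01 and -0.01 for all genes.

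Genes of the polymerases and the clamp loader were among the larger differences at 180 min. Pold1 read 9.55 and 9.21 at 0 min, 9.30 and 9.32 at 20 min, 9.13 and 9.09 at 60 min and 8.85 and 8.89 at 180 min in WT, a difference of -0.51 at 180 min (SE 0.12, adjusted p = 0.0559). At these times it read 9.04 and 9.27, 9.06 and 9.12, 8.98 and 8.98, and 8.62 and 8.78 in Y721F, and differed by -0.46 at 180 min (adjusted p = 0.123). In both lines the 180 min arrays lie below all others of that line. Rfc2 read 9.74 and 9.54 at 0 min and 9.32 and 9.08 at 180 min in WT (-0.44, adjusted p = 0.258), and 9.76 and 9.36 against 9.09 and 8.96 in Y721F (-0.54, SE 0.18, adjusted p = 0.193). The groups do not overlap in either line. In WT, Cdc45 differed by -0.47, Pole by -0.45 (adjusted p = 0.0914), Mcm10 by -0.41 (adjusted p = 0.155) and Orc6 by 0.36 (adjusted p = 0.261).

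Rrm2 went the other way early. In WT it read 9.80 and 9.92 at 0 min, 10.21 and 10.43 at 20 min, 10.40 and 10.47 at 60 min and 10.15 and 10.53 at 180 min. All 6 later arrays lie above both at 0 min. The difference was 0.58 at 60 min (SE 0.27, adjusted p = 0.428 in limma). In Y721F the 0 min arrays, at 9.61 and 10.29, were far apart and overlapped the later ones.

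Arrays of the same number and line deviated together in the time course, so the number marks a shared source of spread there. With the number as a block within each line, 0 of 40 were still called, and 8 members in WT and 2 in Y721F had an adjusted p under 0.05 at 180 min at a smaller fold, with Pold1 at 0.0119 and Rrm2 at 0.0163 in WT, and Rfc2 at 0.0188 and Pold1 at 0.0276 in Y721F. At 60 min it was Rrm2 in WT alone (adjusted p = 0.0152). Responses of Y721F and WT did not differ by call at 20, 60 or 180 min (0, 0 and 0 of 40, against 0% of all genes at each time, with 0, 0 and 0 at an unadjusted p under 0.05). Genes of the switch did change by 180 min. Cdkn1b fell by 1.11 in WT (adjusted p = 0.0274) and by 1.23 in Y721F (adjusted p = 0.0461). The pocket protein gene Rbl2 fell by 1.14 in WT (adjusted p = 0.0422), and Ccnd1, at 3.27 in WT (SE 1.07, adjusted p = 0.146), was not called. Of the further fork proteins, Timeless differed by -0.62 in WT at 180 min (adjusted p = 0.0226 in limma), a fall, and was not called in Y721F.

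**Figure D5:**
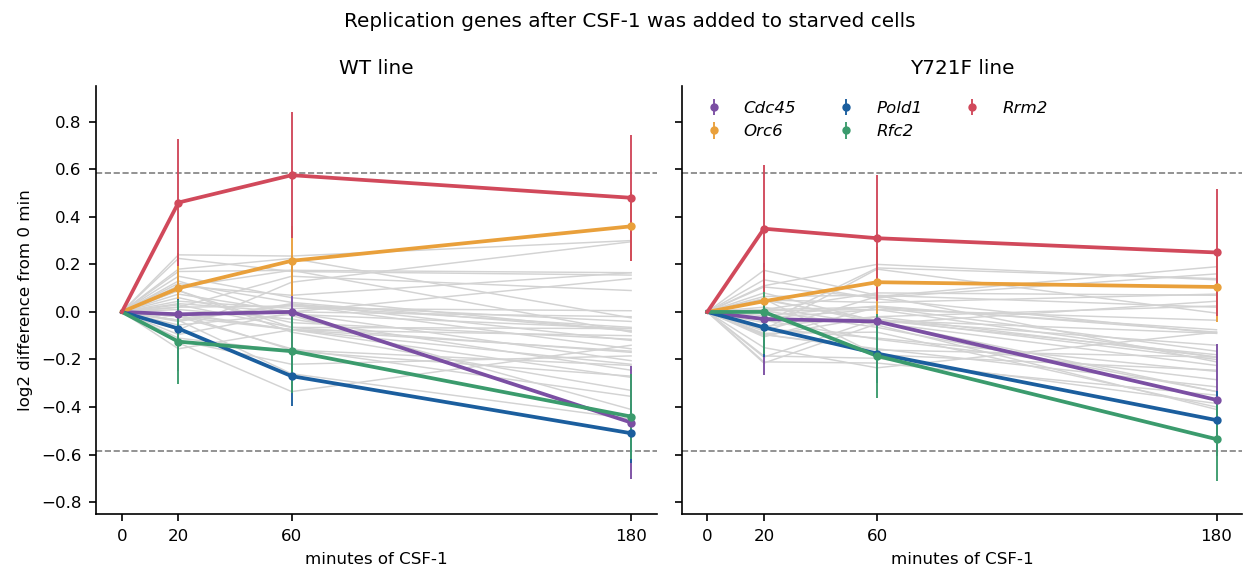
Difference from 0 min (log2) at 20, 60 and 180 min of CSF-1 in WT and Y721F, with 1 grey line per gene and Rrm2, Orc6, Pold1, Rfc2 and Cdc45 in colour with SE bars. Pold1 ends at -0.51 in WT and -0.46 in Y721F, Rrm2 in WT lies at 0.58 at 60 min, and 0 of the 40 are called.

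Starved cells occur in both experiments for WT and Y721F, which allowed the line difference to be read again. At 0 min of the time course, 0 of 40 members were called between Y721F and WT, against 0.727% of all genes, 4 had an unadjusted p under 0.05 in limma, and the median was -0.08. Mcm10 read 9.83 and 9.76 in WT and 9.16 and 9.30 in Y721F, and thus differed by -0.57 (SE 0.14, adjusted p = 0.107). Its groups are apart in the same direction as in the steady-state experiment. Pola1 read 9.27 and 9.47 in WT and 9.69 and 9.58 in Y721F, a difference of 0.27 (adjusted p = 0.52), so its sign was opposite to that of the steady-state experiment.

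The levels of starved cells differed between the experiments themselves. Steady-state starved WT cells differed from WT cells at 0 min in 12 of 40 members (8 higher, 4 lower), against 13.3% of all genes, and Y721F cells in 13 of 40 (3 higher, 10 lower), against 25.1%. Among the 8157 genes in the members' signal range, 25.9% were called in WT and 37.8% in Y721F. The count of members lay a little above that share in WT and below it in Y721F. In WT the largest were Pole2 (-1.16), Mcm3 (1.03) and Pola1 (0.91), and in Y721F Pole2 (-1.28), Pole (-1.22) and Tyms (-1.14). After quantile normalization or centring, 12 of the 12 calls in WT and 8 of the 13 in Y721F were still made. The sign of the members' median in Y721F turned with the scaling. It was -0.17 as deposited, 0.14 after quantile normalization (9 called higher, 5 lower) and 0.16 after centring (10 higher, 5 lower). Other genes moved along with the members. The median of the genes in that range was -0.275 as deposited and 0.001 after quantile normalization. That of all genes was 0.115 as deposited and 0.445 after centring. The members' median thus stayed above the genes in range and below all genes. Experiment and starvation as practised in each cannot be told apart. A comparison added after these values were seen asked whether the line difference itself changed between the experiments: it did for 1 of 40 members, Pola1 (-1.08, SE 0.18, adjusted p = 0.00545 in limma), against 1.64% of all genes.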

How the data were processed

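Total RNA of 4 mouse macrophage lines was measured on 32 arrays. The authors deposited 1 log2 signal per probe set and array. No source used here states this scale, which was inferred from the range of the values, or names the background correction, the normalization or the genome build. Of 35556 probe sets, 21789 name 1 gene in the array's annotation and were used, which gave 19938 genes (the probe set with the highest mean where a gene has several). The 8 groups of an experiment entered 1 limma 3.58.1 model (R 4.3.3, lmFit then eBayes) with 8 residual degrees of freedom, and comparisons between experiments with all 32 arrays. P-values were adjusted by Benjamini-Hochberg over 19938 genes in each of 30 comparisons. The fit was tested on simulated data.

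The members and lists were chosen with earlier results of these data known. Named with array values were, by rule, the members of each role with the largest and smallest mean growth effect, the 10 largest, and called members (at most 8 per comparison). Alternatives were quantile normalization, a filter on dim genes, a replicate block, all 32 arrays in 1 fit, an intensity trend with robust prior, an unadjusted cutoff, the mean of all probe sets and each array left out. Centring on the 75th percentile, the call at any fold and the change of the line difference between experiments were added after seeing the data. Deviations of time-course arrays with the same number in the labels correlated at 0.487 to 0.734 within WT and 0.353 to 0.648 within Y721F, so the numbers pair them within a line. In the steady state they correlated at 0.042 to 0.28. With 2 arrays a group, the number of arrays limits the precision.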

Additional observations from a re-analysis of the deposited data

Results flagged for a closer look

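The Pola1 difference between Y721F and WT had opposite signs in the 2 experiments, and the one at 0 min was not called. In steady-state starved cells Pola1 was lower in Y721F, at 9.37 and 9.56 against 10.35 and 10.21 in WT. At 0 min of the time course it read 9.69 and 9.58 in Y721F against 9.27 and 9.47 in WT. The call in steady-state starved cells was lost after quantile normalization (-0.56, adjusted p = 0.0171 in limma) and after centring. The comparison of the 2 differences was added after these values were seen. The change of the difference was -1.08 (SE 0.18, adjusted p = 0.00545 in limma, from 0.00118 to 0.0498 over the alternatives), and it was called without each of the 8 arrays in turn. It drew attention because 2 groups differed in the effect of the same contrast by a test of the difference itself.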

How the results depend on the processing

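Of 237 counts of called members under other settings, over 30 comparisons, 224 stayed within 1.5 times the reported count, and 0 named gene values reversed. Most of the 30 comparisons had a reported count of 0, and 0 that stayed 0 was taken as unchanged. The 224 therefore says little about the comparisons with calls. The 13 others, most of them in comparisons with calls, follow. Fitting all 32 arrays together gave 0 calls for growth in WT. Quantile normalization and centring gave 0 and 0 for growth in Y721F, 2 and 2 for grown Y721F against WT, 1 and 1 for starved Y721F against WT, and 5 and 5 for starved 3AB against Y721F; centring gave 3 for grown 3AB against Y721F. The unadjusted cutoff gave 2 for the difference in growth effect between Y721F and WT and 2 for starved 3AB against 3ABY721. The replicate block gave 2 (Pola1 and Chaf1b) in place of 1 for the change of the line difference between experiments, and no other count of calls moved by over 1.5 times under it. Without 1 array at a time the counts ranged from 0 to 0 for growth in WT, 0 to 2 for growth in Y721F, 0 to 1 for the difference in growth effect between Y721F and WT (1 without WT grown 2), 1 to 6 for grown Y721F against WT, 0 to 1 for grown 3ABY721 against WT (1 without WT grown 2), 2 to 7 for grown 3AB against Y721F, 9 to 13 for starved Y721F against WT, 4 to 11 for starved 3AB against Y721F, 10 to 11 and 12 to 15 for the experiments in WT and Y721F, and 1 to 1 for the change between them; the remaining comparisons gave 0. The causes were not tested.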

Other observations

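Some genes of the neighbouring lists were also called for growth in single lines. In Y721F, growth raised the helicase Blm (0.98), the polymerase delta subunit Pold4 (0.97), Fancd2 (0.60), a Fanconi anaemia protein, Rad51ap1 (0.64), a recombination factor, and Bub1 (1.19), and Dna2 fell by 0.97. These values rest on the starved Y721F arrays with their low upper quartiles. For growth in Y721F, the 8157 genes in the members' signal range had a median of 0.15 as deposited and -0.001 after quantile normalization. Calls of these list genes after such scaling are not given here. In WT, E2f3 rose by 0.63 and the Cdk inhibitor gene Cdkn2c fell by 0.59. Ccnd2 rose by 2.70 in WT, 2.14 in 3ABY721 and 2.69 in 3AB, and its difference in Y721F was 1.03 (adjusted p = 0.0795 in limma). Each of these is a value of 1 line with 2 arrays a group, and differences between lines in these effects are not given here.

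Among the macrophage markers, growth went with a fall of 4 of 10 in the mean over the 4 lines, the receptor kinase Mertk by 1.77, the lysozyme gene Lyz2 by 0.98, Adgre1 by 0.72 and the Fc receptor gene Fcgr1 by 0.71. Csf1r itself differed by -0.01.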
